A study of Mus musculus with 20 samples.

Results

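Leukemia inhibitory factor (LIF) holds mouse embryonic stem cells (mESCs) in self-renewal through a short cytokine pathway, and 7 of its genes are described here in *Zmym2*-/- and control samples. The genes are *Lifr*, *Il6st*, *Jak1*, *Stat3*, *Socs3*, *Pim1* and *Pim3*. They were taken by symbol for their place in the pathway, with earlier results of these data known, from the 25199 genes counted in at least 1 of 3 raw count tables, and all 7 were counted in each table. ZMYM2 is a zinc finger protein that takes part in silencing genes and transposons. RNA was sequenced from 20 libraries. *Zmym2*-/- lines (KO) and lines made with a non-target guide RNA (NT, labelled wild-type) came from V6.5, an mESC line of C57BL/6x129/SvJae background. Each line type gave 2 libraries as embryoid bodies (EBs, aggregates in which mESCs differentiate) at day 3 and 2 libraries as mESCs in serum and LIF at day 0. The other libraries came from single whole C57BL/6 embryos at embryonic day 8.5 (E8.5), 6 *Zmym2*-/- (KO) and 6 *Zmym2*+/+ (WT), with 3 males and 3 females of each genotype. KO lines and KO embryos carry a mutation in the first coding exon of *Zmym2* made with 1 guide RNA, so its transcript may persist. The methods describe the lines as clonal, but the labels do not say whether both libraries of a group came from different clones. The p-values for the lines thus rest on the spread between the 2 libraries of a group, pooled over genes, and this spread may be technical. Whether the EB medium held LIF is not given in the sources used here.

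LIF binds the receptor LIFR, which pairs with the shared subunit gp130, the product of *Il6st*. JAK kinases bound to both chains, JAK1 among them, then phosphorylate the transcription factor STAT3, which enters the nucleus and switches on its targets. *Socs3* is such a target and encodes an inhibitor that binds gp130 and JAKs, so that the pathway limits itself. *Pim1* and *Pim3* are targets as well and encode serine/threonine kinases that favour survival and self-renewal of mESCs. In the mouse genome (GENCODE annotation of GRCm38) all 7 are protein-coding, and their gene bodies run over chr15:7090614-7197489 (*Lifr*, plus strand), chr13:112464070-112510086 (*Il6st*, plus), chr4:101152367-101265282 (*Jak1*, minus), chr11:100885098-100939540 (*Stat3*, minus), chr11:117966079-117970047 (*Socs3*, minus), chr17:29490753-29496112 (*Pim1*, plus) and chr15:88862186-88865726 (*Pim3*, plus).

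Libraries held 32016880 to 50937945 counts in the lines and 38142819 to 64057608 in embryos. *Zmym2* transcript fell in the lines, with 29.4 and 27.6 CPM (counts per 1000000 counts, scaled by TMM factors) in KO mESCs, against 68.1 and 72.0 CPM in NT mESCs, and 31.9 and 30.3 CPM in KO EBs, against 91.2 and 91.7 CPM in NT EBs. In embryos it had 47.7 ± 15.5 CPM in KO against 89.8 ± 27.6 CPM in WT (SD, n = 6 each), with overlap between 50.3 and 67.1 CPM and no call at adjusted p = 0.226 (edgeR quasi-likelihood test). Of 20159 genes tested in mESCs, 19.2% were called between KO and NT at an adjusted p under 0.05, of 20142 in EBs 7.39%, and of 22729 in embryos 0.524%. The 4 primed epiblast markers (*Fgf5*, *Pou3f1*, *Otx2*, *Dnmt3b*) were all higher in KO mESCs, with a summed level of 646 to 893 CPM against 195 to 271 CPM in NT mESCs. Of the 8 pluripotency markers, 4 were lower there (*Nanog*, *Esrrb*, *Tbx3* and *Prdm14*) and none was higher, with sums of 3297 to 3471 CPM against 3714 to 3847 CPM. None of the 4 macrophage markers was counted in both line tables.

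Because 6 of the 7 genes were lower in KO mESCs, their promoters were read for the element to which STAT proteins bind, TTCNNNGAA, which reads alike on both strands. RefSeq (GRCm38.p6) gives 9 promoter windows for the 7 genes, each of 250 bases before and 50 bases after a start, and 1 of them held the element, against 8.30% of 32851 windows. It was the promoter of *Socs3* (chromosome 11, minus strand), in which the element lies 154 to 146 bases before the start at position 117969366. This RefSeq start and its window lie inside the gene body given above, which begins on the minus strand at position 117970047. A single match in 9 windows is close to the background share, and its part in the level of *Socs3* was not tested. The stretch of that window outside annotated exons, chr11:117969452-117969616, is shown 5′ to 3′ on the minus strand with the element in capitals, since it is the single match among the 9 windows.
Socs3: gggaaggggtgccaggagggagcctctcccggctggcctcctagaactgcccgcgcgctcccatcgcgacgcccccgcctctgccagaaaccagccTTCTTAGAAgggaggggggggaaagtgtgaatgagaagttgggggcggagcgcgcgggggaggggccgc
The narrower element TTCCNGGAA, which is contained in TTCNNNGAA, was in none of the 9 windows and in 1.15% of all windows. Windows of *Lifr*, *Pim1*, *Pim3*, *Il6st*, *Socs3*, *Jak1* and *Stat3* held up to 53, 42, 40, 33, 31, 29 and 15 CpG, against a median of 7 over all windows, and the other windows of *Lifr* and *Pim1* held 4 and 5.

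KO and NT mESCs were compared first, under serum and LIF, where the pathway is driven from the medium. *Socs3*, *Pim3*, *Jak1*, *Lifr*, *Stat3* and *Il6st* were lower in KO mESCs, by 1.90-fold for *Socs3* down to 1.23-fold for *Il6st*, and *Pim1* was not called. Thus 6 of 7 were called lower, against 8.94% of all genes tested, and the median log2 fold change of the 7 was -0.63, against 0.01 over all genes.

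At the cell surface, *Lifr* had 26.1 and 21.9 CPM in KO mESCs, against 37.3 and 36.9 CPM in NT mESCs. Its log2 fold change was -0.63 ± 0.12 (SE, adjusted p = 0.00281, edgeR quasi-likelihood test with Benjamini-Hochberg adjustment, as for every other adjusted p unless another tool is named). The call held in 10 of 12 alternative fits and was missed by limma on RPKM with either pseudocount (adjusted p = 0.0513 and 0.0572). The 4-fold minimum is not counted among the alternatives here or below, and none of the 7 genes passed it in mESCs. *Il6st*, the gene of gp130, had 62.8 and 71.3 CPM in KO mESCs, against 82.4 and 82.0 CPM in NT mESCs. The libraries did not overlap for either gene, as in 30.3% of all genes shared by both line tables that were lower in this way. The change of *Il6st* was small, at -0.29 ± 0.09 (SE, adjusted p = 0.0435), and the call was lost without either NT library (adjusted p = 0.125 without NT replicate 1 and 0.143 without NT replicate 2), without KO replicate 1 (0.211), and with DESeq2 (0.0509), so that it held in 4 of 12 alternatives.

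For the kinase gene *Jak1*, KO mESCs had 36.0 and 33.4 CPM, against 58.7 and 58.9 CPM in NT mESCs, a log2 fold change of -0.76 ± 0.10 (SE, adjusted p = 0.000184). Both KO libraries were at about the same level and well below both NT libraries. *Stat3*, the transcription factor at the end of the relay, had 76.5 and 74.6 CPM in KO mESCs, against 109 and 104 CPM in NT mESCs. Its log2 fold change was -0.49 ± 0.08 (SE, adjusted p = 0.00123), also with no overlap. The annotation places the end of *Stat3* 72 bases into the end of *Stat5a* on the other strand. It also has *Raver2*, *Gm24468* and *Gm12785* over parts of *Jak1*, with a largest overlap of 172 bases. The strand setting of the counting is not given in the sources used here.

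Among the targets, *Socs3*, the feedback inhibitor, had 148 and 143 CPM in KO mESCs, against 271 and 282 CPM in NT mESCs. It had the smallest adjusted p of the 7 genes (log2 fold change -0.93 ± 0.08 SE, adjusted p = 4.56e-06), and its level in KO mESCs was 52.5% of that in NT mESCs. *Pim3* had 169.8 and 202 CPM in KO mESCs, against 349.8 and 335 CPM in NT mESCs, with a log2 fold change of -0.88 ± 0.09 (SE, adjusted p = 2.23e-05). Here the KO libraries differed from each other more than the NT libraries did, but both lay far below them. The related kinase gene *Pim1* did not follow, with 199.7 and 182 CPM in KO mESCs, against 225 and 180.0 CPM in NT mESCs. The groups overlapped, and the log2 fold change of -0.08 ± 0.10 (SE, adjusted p = 0.631) turned to 0.09 without NT replicate 1. An antisense gene, Gm26885, lies over part of *Pim1*.

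**Figure D1:**
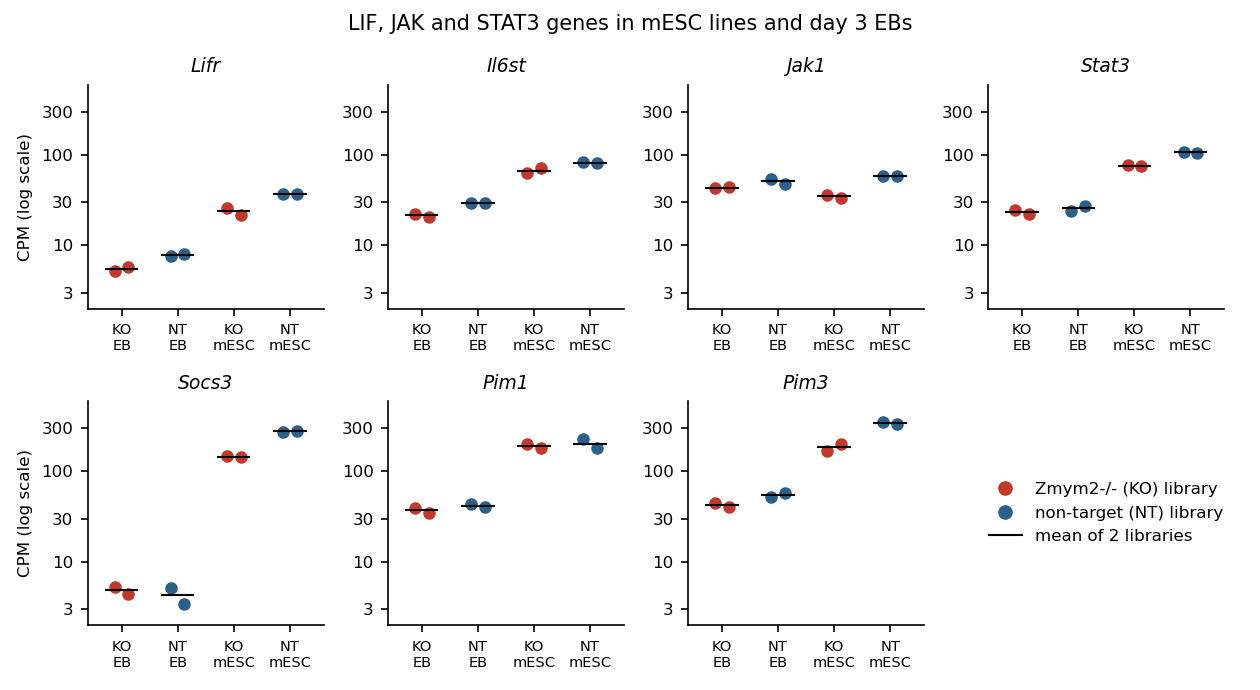
Level of each of the 7 genes in CPM (log scale, the same in every panel) in each library of KO EBs, NT EBs, KO mESCs and NT mESCs, 2 libraries a group; points are libraries and bars are means. In mESCs both KO libraries lie below both NT libraries for 6 genes, and *Pim1* overlaps. All but *Jak1* are called lower in EBs than in mESCs of both genotypes, most of all *Socs3*, at 4.44 and 5.22 CPM in KO EBs and 3.43 and 5.16 CPM in NT EBs.

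The remaining genes of the pathway were taken as a list of 52 other ligands, receptors, kinases, STATs, inhibitors, adaptors and targets. Of the 51 tested in mESCs, 14 were lower and 6 were higher in KO mESCs, where 8.94% of all genes were lower and 10.3% higher, and 31 did not pass the test. The median log2 fold change of the list was -0.24, against 0.01 over all genes. Limma on log2(RPKM + 0.1) called 9 of them and on log2(RPKM + 1) called 6, and 12 were called without NT replicate 2.

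The genes listed as LIF or STAT3 targets held most of the lower calls, with 9 of 13 lower and 1 higher. *Klf4*, a reprogramming factor of the Krüppel-like family, had 94.9 and 108 CPM in KO mESCs, against 353 and 395 CPM in NT mESCs (log2 fold change -1.88 ± 0.09 SE). *Tfcp2l1*, a transcription factor of naive pluripotency, had 54.9 and 33.6 CPM in KO mESCs, against 149.6 and 155 CPM in NT mESCs (-1.78 ± 0.16 SE). *Myc*, *Sgk1* and *Gbx2*, in turn a growth regulator, a kinase and a homeobox factor, were lower with log2 fold changes of -0.74 ± 0.10, -0.50 ± 0.10 and -0.60 ± 0.13 (SE). *Klf5*, another Krüppel-like factor, had 153 ± 10.3 CPM in KO and 157 ± 3.33 CPM in NT mESCs (SD, n = 2 each) and was not called.

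*Pim2*, the third member of the PIM kinase family, moved the other way. It had 222 and 278 CPM in KO mESCs, against 34.7 and 21.7 CPM in NT mESCs, and a log2 fold change of 3.14 ± 0.17 (SE). Both KO libraries were thus above both NT libraries, while *Pim3* lay below and *Pim1* overlapped. *Gab1*, which encodes a docking protein for receptor signalling, was also higher (0.84 ± 0.14 SE). Of the STAT genes, *Stat5b* (-1.15 ± 0.17 SE) and *Stat4* (-0.88 ± 0.21 SE) were lower, and no member of the 6 was higher.

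The ligand genes called higher had few counts. *Osm*, an interleukin-6 family cytokine, was higher in KO mESCs but had just 45 and 40 counts there, against 5 and 4 counts in NT mESCs. *Ctf2*, a cardiotrophin, had 31 and 17 counts in KO mESCs, against 3 and 1 counts in NT mESCs. Adjusted p was between 9.15e-08 and 0.0101 for the genes of the list named here as called.

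**Figure D2:**
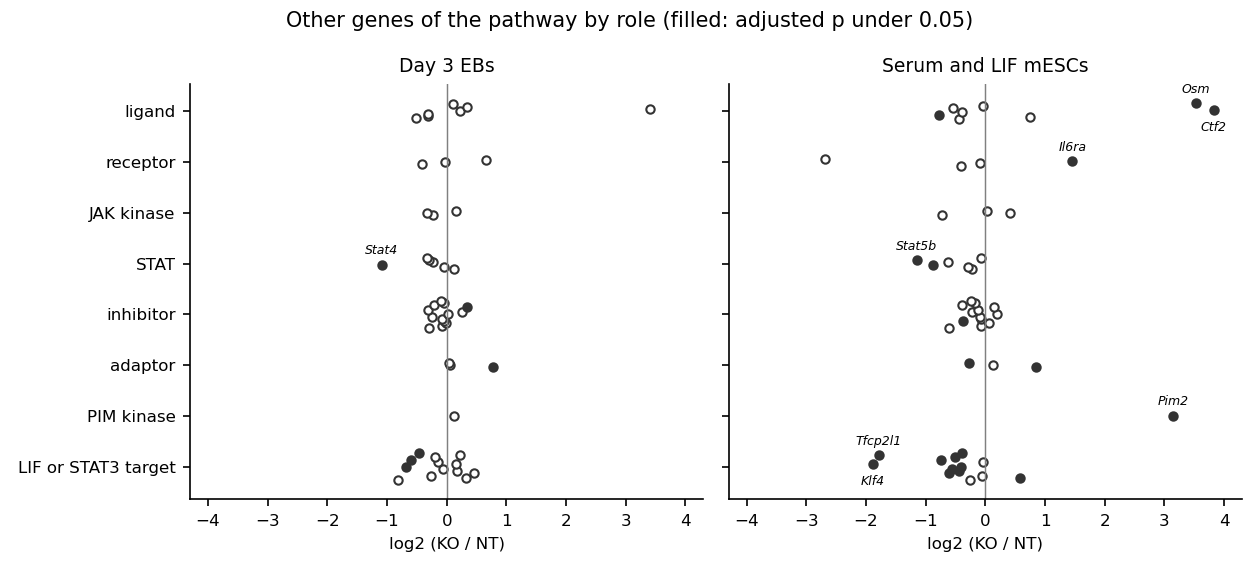
Log2 fold change, KO over NT, of the other genes of the pathway by role, in day 3 EBs (left) and in mESCs (right); each point is a gene, filled where the adjusted p is under 0.05, and genes called at a change of 2-fold or more are named. In mESCs 14 filled points lie below 0 and 6 above, and in EBs 4 and 2.

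In EBs the same comparison called 2 of the 7 genes, *Il6st* and *Pim3*, both lower in KO EBs, against 2.77% of all genes tested that were lower. *Il6st* had 22.3 and 20.6 CPM in KO EBs, against 29.4 and 29.2 CPM in NT EBs (log2 fold change -0.45 ± 0.09 SE, adjusted p = 0.00792). *Pim3* had 44.4 and 40.0 CPM in KO EBs, against 52.4 and 57.2 CPM in NT EBs (-0.37 ± 0.08 SE, adjusted p = 0.0127). Neither gene overlapped between the groups, as was so for 25.4% of genes in this direction. Without NT replicate 2 the adjusted p of *Pim3* was 0.0649, and neither gene was called with limma on RPKM.

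The receptor gene *Lifr* had 5.16 and 5.71 CPM in KO EBs, against 7.54 and 8.10 CPM in NT EBs. These libraries did not overlap either, and the log2 fold change of -0.53 ± 0.15 (SE) was close to the threshold, at an adjusted p of 0.0538, or 0.0209 without KO replicate 2. *Jak1* had 42.7 and 44.0 CPM in KO EBs, against 54.3 and 48.2 CPM in NT EBs (-0.24 ± 0.08 SE, adjusted p = 0.0957). It passed without KO replicate 2 (0.0446) and without NT replicate 2 (0.0414), so that 2 to 4 of the 7 genes were called when 1 library was left out.

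*Socs3* was low in EBs of both genotypes, with 5.22 and 4.44 CPM in KO EBs, against 5.16 and 3.43 CPM in NT EBs. The groups overlapped, and the log2 fold change of 0.18 ± 0.21 (SE, adjusted p = 0.710) was -0.09 without NT replicate 2. *Stat3* had 24.4 and 22.3 CPM in KO EBs, against 24.0 and 27.3 CPM in NT EBs, and also overlapped. *Pim1* had 39.7 and 34.9 CPM in KO EBs, against 43.8 and 39.9 CPM in NT EBs (-0.16 ± 0.09 SE, adjusted p = 0.326).

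Of the 49 other pathway genes tested in EBs, 4 were lower and 2 were higher in KO EBs (against 2.77% and 4.62% of all genes), with a median log2 fold change of -0.07, against 0.01 over all genes. *Myc* (-0.60 ± 0.08 SE), *Junb*, a subunit of the AP-1 factor (-0.69 ± 0.12 SE), *Stat4* (-1.09 ± 0.22 SE) and *Zfp36*, whose product destabilises cytokine mRNAs (-0.47 ± 0.11 SE), were lower. *Gab1* (0.78 ± 0.11 SE) and *Socs4*, a relative of *Socs3* (0.35 ± 0.10 SE), were higher. Of these 6 genes, 5 were also called in mESCs (83.3% of the EB calls, and 25% of the 20 mESC calls), the exception being *Socs4*. Over all genes 19.2% were called in mESCs, and the share called in both stages was not counted. *Klf4* was at 2.51 ± 0.63 CPM in KO and 2.27 ± 0.33 CPM in NT EBs (SD, n = 2 each), and *Pim2* at 1063 ± 82.8 CPM and 984 ± 16.8 CPM, and neither was called. Without KO replicate 2, 13 pathway genes were called.

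EBs were next compared with mESCs in each genotype, over the 18926 genes present in both line tables. Each stage has a table of its own, so stage and table cannot be told apart, nor can less RNA per cell and fewer cells that make it. In KO lines 6 of the 7 genes were lower in EBs and *Jak1* was higher, against 22.1% of genes lower and 23.1% higher. In NT lines the same 6 were lower, against 23.6% of all genes, and *Jak1* was not called.

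*Socs3* changed most, to 3.32% of its mESC level in KO EBs and to 1.55% in NT EBs. Its log2 fold change, EB over mESC, was -4.90 ± 0.13 in KO lines (SE, adjusted p = 8.37e-11) and -6.02 ± 0.14 in NT lines (SE, adjusted p = 2.13e-11). *Pim1*, *Lifr*, *Pim3*, *Stat3* and *Il6st* followed in KO lines, with log2 fold changes of -2.35, -2.15, -2.14, -1.69 and -1.64. In NT lines *Pim3* came next after *Socs3* at -2.64, then *Pim1* at -2.28, *Lifr* at -2.24, *Stat3* at -2.05 and *Il6st* at -1.49. *Jak1* stood apart from the other genes of the relay, with a log2 fold change of 0.32 ± 0.09 in KO lines (SE, adjusted p = 0.00830, or 0.0526 without KO EB replicate 2) and -0.20 ± 0.08 in NT lines (SE, adjusted p = 0.0722, or 0.0388 without NT EB replicate 1 and 0.0407 with a replicate block). In NT lines both EB libraries of *Jak1* lay below both mESC libraries. The share of all genes that separate in this way between stages was not counted, so this is not read as a result.

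The pathway list changed widely between the stages. In KO lines 21 of 49 genes were lower and 11 higher in EBs. In NT lines 24 were lower and 10 higher (against 23.6% and 23.0% of all genes). Of the list, 30 genes were called in both genotypes (93.8% of the KO and 88.2% of the NT calls). Over all genes 45.2% were called in KO and 46.6% in NT lines, and the share called in both was not counted. All 13 LIF or STAT3 targets had a lower value in KO EBs, and 10 of them were called. In NT EBs 12 of the 13 had a lower value, and 11 were called. Of all 18926 genes, 9549 had a lower value in KO EBs and 9482 in NT EBs. *Klf4* (log2 fold change -5.30 in KO and -7.37 in NT lines), *Tfcp2l1* (-3.71 and -5.72), *Bcl3*, a nuclear IκB protein (-4.76 and -4.21), *Klf5* (-3.57 and -3.48) and *Gbx2* (-2.81 and -3.86) were among the 12 genes with the smallest p in both. *Junb*, *Sgk1*, *Icam1*, a cell adhesion molecule, and the JAK family gene *Tyk2* were lower in both genotypes as well, with values between -1.25 and -3.00. *Pim2* was higher in EBs, by 2.09 in KO and 5.11 in NT lines on the log2 scale, and so was *Ptpn11*, the gene of the phosphatase SHP2, by 0.83 and 0.51. *Jak3* was lower by the same rule in KO lines (-1.62), and *Stat2* (-0.95) and *Ier3*, an early response gene (-2.34), in NT lines. The ligand gene *Lif* itself was called higher in EBs of both genotypes (1.13 in KO and 0.98 in NT lines).

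Whether this change differed between genotypes was tested as an interaction, which asks equally whether the effect of the knockout differed between stages. It was called for *Socs3*, *Jak1* and *Pim3*, all 3 with a positive sign, where 3.07% of all genes were called with that sign. For *Socs3* the difference, KO minus NT, was 1.12 ± 0.18 on the log2 scale (SE, adjusted p = 0.00489). It was called in 14 of 15 alternative fits, limma on log2(RPKM + 0.1) being the exception (adjusted p = 0.0705). The 4-fold minimum, not counted among these fits, left none of the 7 genes for the interaction. For *Jak1* it was 0.52 ± 0.12 (SE, adjusted p = 0.0271) and for *Pim3* 0.51 ± 0.12 (SE, adjusted p = 0.0367). Neither of these held well when libraries were left out, and each single library left out in turn gave an adjusted p above the threshold for 1 or both genes, up to 0.136 for *Jak1* (without NT EB replicate 2) and 0.150 for *Pim3* (without KO EB replicate 1). *Stat3* had 0.36 ± 0.12 (SE, adjusted p = 0.110), and *Lifr*, *Pim1* and *Il6st* had 0.10, -0.08 and -0.16. With a replicate block, which pairs EB and mESC libraries of the same number, *Stat3* was called as well (adjusted p = 0.0354).

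Of the 49 other pathway genes, 4 had a positive and 2 a negative interaction, against 3.07% and 2.18% of all genes. They were *Klf4* (2.07 ± 0.21 SE), *Tfcp2l1* (2.01 ± 0.30 SE), *Gbx2* (1.06 ± 0.23 SE) and *Stat5b* (0.86 ± 0.20 SE), and *Pim2* (-3.03 ± 0.22 SE) and *Jak3* (-0.75 ± 0.18 SE). The primed epiblast markers, which were higher in KO mESCs, had summed levels of 2831 to 3019 CPM in KO EBs, against 3093 to 3259 CPM in NT EBs, and all 4 had a negative interaction. Their part in the values of *Socs3*, *Klf4* and *Pim2* was not tested.

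**Figure D3:**
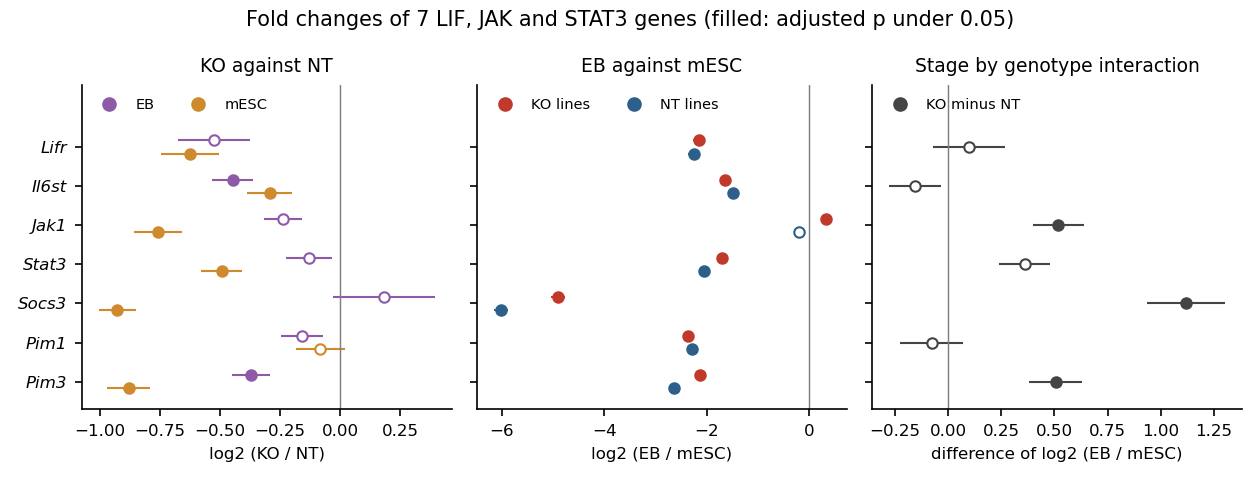
Log2 fold changes of the 7 genes with their standard errors, for KO over NT in EBs and mESCs (left), EB over mESC in KO and NT lines (middle) and the difference of that change between genotypes, KO minus NT (right); filled points have an adjusted p under 0.05. *Socs3* lies at 0.18 in EBs and -0.93 in mESCs (left) and farthest from 0 in the other panels, and *Jak1* has an EB over mESC value of 0.32 in KO lines (called) and -0.20 in NT lines (not called).

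Per transcript length, in RPKM as deposited, *Pim3* was the highest of the 7 genes in every group, at 75.2 ± 10.3 RPKM in KO mESCs and 139 ± 4.88 RPKM in NT mESCs (SD, n = 2 each). *Socs3* was next after *Pim1* in KO mESCs (49.3 ± 0.51 RPKM), below its 55.7 ± 2.75 RPKM, and above *Pim1* in NT mESCs (94.2 ± 2.03 RPKM, against 59.3 ± 9.65 RPKM for *Pim1*). The members of the relay were lower, and the receptor gene *Lifr* was last in both, at 2.18 ± 0.24 RPKM in KO mESCs and 3.39 ± 0.05 RPKM in NT mESCs. No neighbours in the order overlapped in mESCs. In EBs *Socs3* lay below all but *Lifr*, at 1.71 ± 0.18 RPKM in KO and 1.5 ± 0.43 RPKM in NT EBs, and *Jak1* came after both PIM kinase genes, at 6.14 ± 0.20 RPKM and 7.17 ± 0.60 RPKM (SD, n = 2 each). *Stat3* and *Il6st* overlapped in NT EBs. In embryos the order by mean ran from *Pim3* (25.2 ± 4.69 RPKM in KO and 25.6 ± 6.68 RPKM in WT) through *Pim1*, *Jak1*, *Il6st*, *Socs3* and *Lifr* to *Stat3* (3.17 ± 1.71 RPKM in KO and 2.98 ± 1.14 RPKM in WT; SD, n = 6 each), and every pair of neighbours overlapped.

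The genes whose levels ran most like those of *Socs3* over the 8 line libraries were found among 13756 genes by the root mean square difference of log2(CPM + 0.1), each gene centred on its mean. They were *Hal* (0.41), *Esrrb* (0.42), *Jam2* (0.43), *Spp1* (0.46) and *Tcl1* (0.47). *Hal* encodes histidine ammonia-lyase, *Esrrb* a nuclear receptor of pluripotent cells, *Jam2* a junction protein, *Spp1* osteopontin and *Tcl1* a cofactor of AKT. *Esrrb* had 351 and 661 CPM on average in KO and NT mESCs and 7.82 and 6.35 CPM in KO and NT EBs. The measure is dominated by the stage, and *Tcl1*, with 31.1 CPM in KO and 32.4 CPM in NT mESCs, does not share the genotype difference of *Socs3*. The stage by genotype interaction, 1.12 for *Socs3*, was -0.37 for *Hal* and -0.002 for *Spp1*. It was 1.24 for *Esrrb*, 1.15 for *Jam2* and 0.77 for *Tcl1*. *Hal* was near the floor in EBs, at 0.09 CPM in KO and 0.23 CPM in NT on average.

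In embryos at E8.5 no gene of the 7 was called between genotypes, where 0.524% of all genes were called, and the KO and WT embryos overlapped for each of them. Over all genes 1.03% had all KO above all WT embryos and 0.145% all KO below all WT embryos. DESeq2 also called none, and 1 of the 7, *Il6st*, had an unadjusted p under 0.05. *Il6st* had 82.4 to 114 CPM (median 98.3) in KO embryos, against 53.8 to 95.7 CPM (median 78.2) in WT embryos, with a log2 fold change of 0.34 ± 0.14 (SE, adjusted p = 0.386). The difference was positive in every alternative, between 0.20 and 0.60, and called in none. None of the 51 other pathway genes tested was called either, and 5 had an unadjusted p under 0.05. The share of 0.524% is at an adjusted p, so it is no background for counts at an unadjusted p, which are not read as a result.

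*Socs3* had 6.69 to 24.98 CPM (median 8.98) in KO embryos, against 5.92 to 33.7 CPM (median 14.0) in WT embryos. *Stat3* had 13.8 to 56.7 CPM (median 25.7) in KO embryos, against 15.5 to 44.2 CPM (median 31.4) in WT embryos. Both genes spread over a wide range within each genotype, and that range covered the difference between genotypes. *Jak1* had 60.3 to 124 CPM (median 69.2) in KO embryos, against 55.8 to 104 CPM (median 85.5) in WT embryos. *Pim3* had 47.5 to 81.9 CPM (median 55.2) in KO embryos, against 42.7 to 98.4 CPM (median 57.5) in WT embryos. *Lifr* and *Pim1*, with medians of 35.7 and 49.7 CPM in KO embryos and 34.5 and 47.1 CPM in WT embryos, overlapped throughout. Of these, *Socs3* had the largest log2 fold change, -0.48 ± 0.45 (SE, adjusted p = 0.689), and the other 5 lay between -0.13 and 0.03.

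The spread followed the letter with which the embryos' names begin, a contrast added after the values were seen. Names begin with H in 4 WT and 2 KO embryos and with J in 2 WT and 4 KO embryos, and the labels do not say what the letters mean. Depth split by the letter as well, with 38142819 to 41299677 counts in H libraries and 48908253 to 64057608 in J libraries. Letter and depth therefore cannot be told apart here. Each name prefix (letter and digits) lies within a single letter, and some embryos share a prefix. The fit for the letter took such embryos as independent, so its p-values may be too small. With genotype in the fit, *Stat3* (log2 fold change J over H -1.24 ± 0.23 SE, adjusted p = 0.0106), *Socs3* (-1.43 ± 0.30 SE, adjusted p = 0.0167) and *Jak1* (-0.73 ± 0.11 SE, adjusted p = 0.00576) were lower in J embryos, where 4.67% of all genes were called lower. *Jak1* had 55.8 to 73.5 CPM in the 6 J embryos, all below the 81.5 to 124 CPM of the 6 H embryos. *Socs3* had 5.92 to 9.90 CPM in J and 8.58 to 33.7 CPM in H embryos, and 5 of 6 H embryos lay above all J embryos. *Stat3* had 13.8 to 34.1 CPM in J and 26.5 to 56.7 CPM in H embryos, and KO embryo 6 was the J embryo that overlapped. The share of all genes that separate by letter was not counted, so these separations are description only. *Lifr*, *Il6st* and *Pim1* differed little between the letters (0.09, -0.06 and -0.003 on the log2 scale, none called), and *Pim3* was not called (-0.52 ± 0.17 SE, adjusted p = 0.0863).

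Of the 51 other pathway genes, 11 were lower in J embryos, against 4.67% of all genes, and none was higher. The share of all genes called higher in J embryos is not given here, so the lack of higher calls is not read as a result. Among the 11 were *Stat6*, *Jak3*, *Lif* and 7 of the 13 targets, *Klf4*, *Klf5*, *Bcl3*, *Zfp36*, *Fos*, *Junb* and *Cebpb*. Markers of trophoblast and decidua, tissues around the embryo, summed to 5.75 to 152 CPM in J and 97.7 to 522 CPM in H embryos, with all 7 markers lower in J and 2 of them called. Macrophage markers summed to 0.649 to 3.48 CPM in J and 4.43 to 14.1 CPM in H embryos, with 3 of 4 called. Immediate-early and heat shock genes, which respond to handling, summed to 84.2 to 113 CPM in J and 115 to 134 CPM in H embryos. Their part in the levels of *Stat3*, *Socs3* and *Jak1* was not tested.

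Within letters *Stat3* was higher on average in KO embryos, by 0.38 on the log2 scale both in J embryos (adjusted p = 0.668) and in H embryos (adjusted p = 1.00), while the value over all 12 embryos was -0.01 ± 0.38 (SE, adjusted p = 0.993). The J value rested on KO embryo 6, at 34.1 CPM, and was 0.01 without it (adjusted p = 0.974), the other J embryos having 17.3, 16.0 and 13.8 CPM in KO and 15.8 and 15.5 CPM in WT. KO embryo 6 also had the highest summed markers of motile cilia (108 CPM), mesendoderm (372 CPM) and pluripotent cells (497 CPM) and the lowest of heart (23.5 CPM) among the 12 embryos. For *Socs3*, KO over WT was 0.16 in J embryos (adjusted p = 0.816, or 0.04 without KO embryo 6) and -0.12 in H embryos (adjusted p = 1.00), against -0.48 over all 12. *Jak1* was 0.15 in J and 0.27 in H embryos. None of these was called, and *Socs3* in J embryos had 6.69, 7.08, 8.05 and 9.90 CPM in KO, against 8.26 and 5.92 CPM in WT, which overlap.

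**Figure D4:**
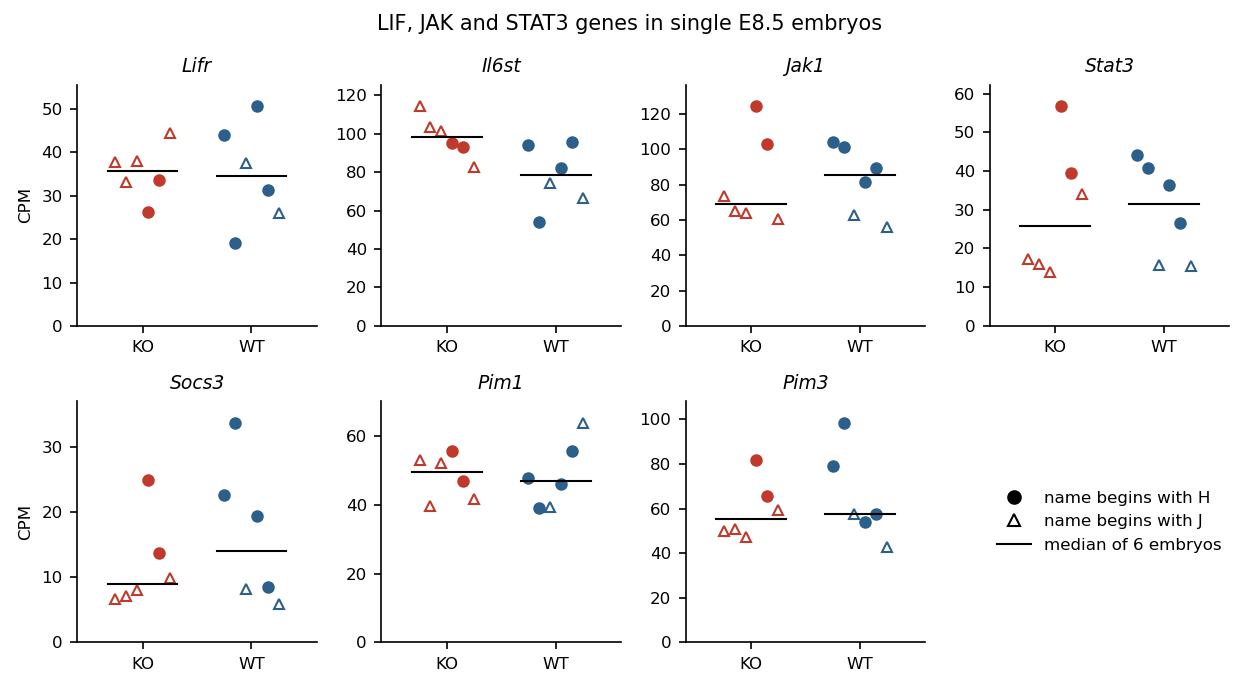
Level of each gene in CPM (linear axes from 0) in single E8.5 embryos, KO left and WT right; filled circles are embryos whose names begin with H, open triangles those with J, and bars are medians of 6. *Jak1* has all J embryos below all H embryos, *Socs3* and *Stat3* nearly so, and the genotypes overlap for all 7 genes.

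Sex was tested as an interaction with genotype in the embryos. By edgeR no gene was called of 22729 (5067 had an unadjusted p under 0.05), and 3 of the 7 genes, *Pim3*, *Stat3* and *Socs3*, had an unadjusted p under 0.05 (adjusted p = 0.0752, 0.0872 and 0.132). DESeq2 called these 3 (adjusted p = 0.0225, 0.0214 and 0.0459) among 2539 genes. *Stat3* had 15.7 ± 1.77 CPM in male and 43.4 ± 11.8 CPM in female KO embryos, against 33.6 ± 15.5 CPM in male and 26.1 ± 10.4 CPM in female WT embryos (SD, n = 3 each). *Socs3* had 7.28 ± 0.70 CPM in male and 16.2 ± 7.84 CPM in female KO embryos, against 21.5 ± 12.8 CPM in male and 11.3 ± 7.14 CPM in female WT embryos (SD, n = 3 each). All 3 male KO embryos have names with J, and 2 of the 3 embryos of every other group have names with H, so sex by genotype and the letters overlap in part. The 3 male KO embryos also share a name prefix (letter and digits) that no other embryo has. Male KO and that prefix therefore cannot be told apart, and a covariate for the letter does not change this. With the letter as a covariate, a fit added after the values were seen, the interaction was 1.14 ± 0.35 for *Stat3*, 1.07 ± 0.51 for *Socs3* and 0.78 ± 0.23 for *Pim3* (SE, adjusted p = 0.162, 0.332 and 0.156), against 1.83 ± 0.54, 2.09 ± 0.74 and 1.09 ± 0.29 without it. Markers of trophoblast and decidua summed to 7.73 to 28.0 CPM in male and 30.9 to 394 CPM in female KO embryos, against 152 to 522 CPM in male and 5.75 to 290 CPM in female WT embryos. Yolk sac endoderm markers summed to 1648 to 2418 CPM in male and 3540 to 6409 CPM in female KO embryos, against 1902 to 3296 CPM in male and 1354 to 2506 CPM in female WT embryos. Cardiac markers summed to 489 to 902 CPM in male and 23.5 to 322 CPM in female KO embryos, against 270.4 to 466 CPM in male and 467 to 819 CPM in female WT embryos. Neural markers summed to 113 to 174 CPM in male and 25.7 to 57.7 CPM in female KO embryos, against 30.9 to 95.0 CPM in male and 86.7 to 136 CPM in female WT embryos. An unadjusted p under 0.05 was found for 6 of 7 trophoblast and decidua, 6 of 7 yolk sac, 5 of 6 cardiac and 2 of 4 neural markers, and their part in the values of *Stat3*, *Socs3* and *Pim3* was not tested.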

How the data were processed

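Per the labels, the authors made stranded mRNA libraries and used STAR 2.7.8a to align reads to mm10 (GRCm38) after Trimmomatic 0.34, with Picard 2.9.0 on the alignments. They deposited raw counts per gene from HTSeq-count. The authors' RPKM values came from StringTie 1.3.5. The deposited normalized counts, whose values are a score here, were used only to check the raw counts. The annotation and strand setting of the counting are not given in the sources used here. All genes in the deposited tables already had at least 10 counts in all.

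Counts were tested with the edgeR 4.0.16 quasi-likelihood test (R 4.3.3, TMM scaling, two-sided), with Benjamini-Hochberg adjustment over all genes of a table and calls at an adjusted p under 0.05. EBs and mESCs were joined on 18926 shared genes. CPM values use TMM scaling over the 8 line libraries or the 12 embryos. DESeq2 1.42.0, limma 3.58.1 on log2(RPKM + 0.1) and log2(RPKM + 1), other filters and scalings, a 4-fold minimum, blocks by replicate number and single libraries left out were alternatives. The scripts were tested on simulated data. At depths of 32016880 to 64057608 counts, 1 CPM stands for 32.0 to 64.1 counts.

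Groups came from the labels. The 7 genes, the pathway list and the marker lists were chosen with earlier results of these data known. Named pathway genes are those called, or the 12 with the smallest p, except that some are not reported here. The 5 genes most like *Socs3* have a mean of at least 1 CPM in the lines. Genes named beyond that rule (*Klf5* in mESCs, *Klf4* and *Pim2* in EBs, *Lif* and *Ptpn11* between stages) were chosen after their values were seen. Promoter windows and their starts are from RefSeq (GRCm38.p6).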

Additional observations from a re-analysis of the deposited data

Results flagged for a closer look

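The change between EBs and mESCs differed between KO and NT lines by the test of that difference (edgeR quasi-likelihood test) for 3 of the 7 genes, by 1.12 on the log2 scale for *Socs3*, 0.52 for *Jak1* and 0.51 for *Pim3*. All 3 had a lower level in KO than in NT mESCs. No single embryo stood far from the others of its genotype by Dixon's test in any of the 14 groups of 6 values examined.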

How the results depend on the processing

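With 2 libraries a group, the fits for the lines rest on a spread pooled over genes, and where 1 library was left out the lone library was taken to vary like the others. Of 658 alternative values for the 7 genes' fold changes, 557 kept their direction and side of the threshold, 34 lost a call, 11 gained one and 56 changed sign, all in values that were not called. *Il6st* in mESCs, and *Jak1* and *Pim3* in the interaction, depended most on single libraries, and the causes were not tested.

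Counts called are given for all genes, then the 7 genes, then the pathway list. In mESCs they were 3871, 6 and 20. Limma called 1999 genes and 9 of the pathway with a pseudocount of 0.1, and 1806 and 6 with 1, while a 4-fold minimum left 783, 0 and 3. In EBs (1489, 2 and 6) limma called 309, 0 and 1 with 0.1 and 203, 0 and 1 with 1, a fit over all 8 line libraries called 955 genes, and a 4-fold minimum left 318, 0 and 0. Between stages a 4-fold minimum left 1309, 4 and 7 in KO lines, and 1553 genes and 8 of the pathway in NT lines. For the interaction (993, 3 and 6) limma called 261, 0 and 3 with 0.1, and 472 genes and 1 of the 7 with 1, and a 4-fold minimum left 112, 0 and 3. Leaving out 1 library gave 2351 to 3858 genes and 12 to 21 of the pathway in mESCs, 2 to 4 of the 7 and 6 to 13 of the pathway in EBs, and 404 to 1221, 1 to 2 and 3 to 6 for the interaction. It moved *Pim1* between -0.23 and 0.0852 in mESCs, *Socs3* between -0.0897 and 0.50 in EBs, and the interactions of *Lifr* between -0.0246 and 0.23 and of *Pim1* between -0.25 and 0.074. For sex by genotype DESeq2 called 2539, 3 and 12, against 0 by edgeR, and edgeR with the letter as covariate called 2 genes and none of the 7.

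Deviations of same-numbered libraries correlated at -0.05 between KO and NT mESCs, -0.04 between KO and NT EBs and -0.47 to 0.40 in embryos, where no embryo correlated best with its own number, so numbers were not taken to pair genotypes. Between stages they correlated at 0.42 in KO and 0.16 in NT lines, and all libraries correlated best with their own number, a hint of shared lines from the data that rests on 2 pairs a genotype and that the labels do not state. With the replicate block, 3930, 5 and 22 were called in mESCs, 2073, 3 and 14 in EBs, 9490, 7 and 35 between stages in KO lines, 9662, 7 and 37 in NT lines, 2325, 4 and 10 for the interaction and 49, 0 and 0 in embryos. Among the 7 genes the block added *Lifr* in EBs (adjusted p = 0.0368), *Jak1* in NT lines (0.0407) and *Stat3* in the interaction (0.0354), and lost *Il6st* in mESCs (0.0531).

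In embryos 119 genes were called, against 356 by DESeq2, 77 without KO embryos 5 and 6, 47 in J embryos alone, 1 in H embryos alone and 1 with the name prefix as a block. The prefix block kept only embryos whose prefix (letter and digits) occurs in both genotypes, which left out all male KO embryos. Its values therefore differ by the embryos used as well as by the block. The 7 genes' uncalled differences turned sign as follows. With the letter as covariate, *Lifr* was -0.0057, *Jak1* 0.21, *Stat3* 0.38, *Socs3* 0.0192 and *Pim3* 0.0417. In H embryos alone *Lifr* was -0.27, *Jak1* 0.27, *Stat3* 0.38, *Pim1* 0.11 and *Pim3* 0.0264, and in J embryos alone *Jak1* was 0.15, *Stat3* 0.38, *Socs3* 0.16 and *Pim3* 0.0502. In J embryos without KO embryo 6, a setting chosen after the values were seen, *Jak1* was 0.19, *Stat3* 0.0141 and *Socs3* 0.0414. With the prefix block *Jak1* was 0.17, *Stat3* 0.52 and *Pim1* 0.21, and without KO embryos 5 and 6 *Lifr* was -0.0424 and *Pim1* 0.0432. With limma *Jak1* was 0.0723 with a pseudocount of 0.1 and 0.0674 with 1, *Stat3* 0.0163 and 0.0228, *Pim1* 0.10 and 0.0949, and *Pim3* 0.0002 with 0.1. Leaving out 1 embryo moved *Lifr* between -0.0787 and 0.18, *Jak1* between -0.17 and 0.065, *Stat3* between -0.31 and 0.13, *Pim1* between -0.0655 and 0.0757 and *Pim3* between -0.25 and 0.0344. By CPM, which does not divide by length, the group means of all 6 other genes lay above that of *Socs3* in EBs and embryos of both genotypes, though single libraries did not all keep that order.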
